A study of Mus musculus with 6 samples.

Results

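Published markers of liver type 1 innate lymphoid cells (ILC1) that encode neither receptors nor transcription factors were followed in liver natural killer (NK) cells. These 6 genes are Tmem176a, Tmem176b, Podnl1, Ckb, Krt7 and Rgs1. They were taken by symbol from the 55414 genes of the deposited table, each symbol matched 1 gene, and all 6 were among the 15527 genes that passed the filter on low counts. Messenger RNA had been sequenced in 6 libraries from NK cells of wild-type (WT) mice, taken on day 3. Of these, 3 came from mice given metformin, a drug against diabetes, at 200 mg/kg for 3 days, and 3 from control mice given phosphate-buffered saline (PBS). The strain, age and sex of the mice, the gate by which NK cells were isolated, and whether each library came from 1 mouse or a pool are not given in the sources used here. Nothing says that the libraries are separate animals, so p-values measure only how far these libraries differ, and that spread may be technical.

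ILC1 are tissue-resident relatives of conventional NK cells. Both carry NK1.1 and NKp46, so a sort on these receptors alone collects both, and in the liver the integrin CD49a marks ILC1 and CD49b marks conventional NK cells. The 6 genes have unlike products. TMEM176A and TMEM176B are small membrane proteins with several membrane spans, made from neighbouring genes, and in mouse dendritic cells they sit in endosomal compartments, where TMEM176B acts as a cation channel. Podocan-like 1, from Podnl1, is a secreted leucine-rich proteoglycan of the extracellular matrix. Brain-type creatine kinase, from Ckb, moves phosphate between ATP and creatine in the cytosol. Keratin 7, from Krt7, is an intermediate filament protein of simple epithelia and, in liver, of bile ducts. RGS1 speeds GTP hydrolysis by G protein alpha subunits and so shortens signals from chemokine receptors in lymphocytes.

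The libraries held 22152167 to 30161214 estimated reads. Metformin library 3 stood apart from the other 5: its mitochondrial share was 0.720%, against 0.429% to 0.515%, and its deviation from the 6-library mean was most strongly tied to gene length (Spearman correlation across genes -0.422, against -0.110 to 0.327), so that short genes read high in it. The fold changes of the 6 genes are given with and without it. Markers of NK cells were abundant in every library. The 9 markers summed to 20517, 21720 and 23294 CPM (reads scaled to a common library size) in metformin libraries 1, 2 and 3. In PBS libraries 1, 2 and 3 they summed to 20103, 21073 and 19529 CPM. Gzma, granzyme A, and Il2rb, a chain of the interleukin-2 and interleukin-15 receptors, gave the most reads among them. The list includes Klrb1c and Ncr1, the genes of NK1.1 and NKp46, which ILC1 also carry. The sum therefore does not tell NK cells from ILC1.

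Tmem176a and Tmem176b lie head to head on chromosome 6. In the deposited table Tmem176a spans 48817853 to 48824005 on the plus strand and Tmem176b 48810752 to 48818430 on the minus strand, so that they overlap by 578 bases. The sources used here do not say whether reads were counted by strand, so reads from the overlap may have gone to either gene. RefSeq promoter windows on GRCm38.p6 (250 bases before a start and 50 after it, a different build from the table's positions) were found for 4 of the 6 genes; Podnl1 and Rgs1 had no entry. The start region of the pair is shown because it holds a start of each gene, 109 bases apart. It lies at chr6:48841233-48841532 on the plus strand, and the capitals run from the Tmem176b start (48841374, read leftward) to the Tmem176a start (48841483, read rightward).
Tmem176a: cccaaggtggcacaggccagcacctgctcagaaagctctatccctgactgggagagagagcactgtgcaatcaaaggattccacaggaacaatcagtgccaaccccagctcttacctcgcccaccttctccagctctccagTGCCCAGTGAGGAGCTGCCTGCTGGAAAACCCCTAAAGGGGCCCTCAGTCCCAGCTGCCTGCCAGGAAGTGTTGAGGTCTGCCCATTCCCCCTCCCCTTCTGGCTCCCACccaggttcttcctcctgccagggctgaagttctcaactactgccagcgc

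The window of Ckb is shown beside it as a start region of another make, with a TATA box in capitals that begins 28 bases before the start. It lies at chr12:111672289-111672588 on the minus strand.
Ckb: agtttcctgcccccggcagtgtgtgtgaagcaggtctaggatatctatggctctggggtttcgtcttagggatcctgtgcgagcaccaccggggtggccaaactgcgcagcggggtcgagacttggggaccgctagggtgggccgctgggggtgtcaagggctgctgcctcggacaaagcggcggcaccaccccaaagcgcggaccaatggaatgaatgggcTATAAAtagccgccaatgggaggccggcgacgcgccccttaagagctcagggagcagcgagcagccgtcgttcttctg
The letters TATAAA, on either strand, occur in 13.62% of all 32851 promoter windows; they were found in the window of Ckb, and in none of the 2 windows of Tmem176a, the 3 of Tmem176b or the 1 of Krt7. The core of T-box sites, GGTGTG, occurs in 19.05% of all windows, in 1 of the 2 Tmem176a windows (not the one printed) and in that of Krt7. A match of letters describes the sequence and does not show a bound site.

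In length-corrected level (TPM, a length-scaled share of transcripts, as deposited) the 6 genes spanned a wide range, and their order was the same in every library but for Ckb and Tmem176b. Rgs1 was highest, with 678 ± 128 TPM in metformin libraries and 492 ± 36.8 TPM in PBS libraries (SD, n = 3 each). Over all libraries its mean of 585 TPM lay above 98.6% of the genes tested. Ckb followed with 195 ± 5.34 TPM in metformin libraries and 152 ± 28.7 TPM in PBS libraries, and Tmem176b with 191 ± 22.1 TPM in metformin libraries and 150.1 ± 10.7 TPM in PBS libraries (SD, n = 3 each). These 2 neighbours in the order did not differ beyond their spread, since Ckb was the higher in 4 libraries and Tmem176b in metformin library 3 and PBS library 1. Below them came Tmem176a, with 106 ± 14.9 TPM in metformin libraries and 79.1 ± 9.33 TPM in PBS libraries, and Podnl1, with 51.0 ± 2.60 TPM in metformin libraries and 34.1 ± 3.94 TPM in PBS libraries (SD, n = 3 each). Krt7 was far below the rest, with 1.67 ± 0.505 TPM in metformin libraries and 1.20 ± 1.01 TPM in PBS libraries (SD, n = 3 each), a mean level reached or passed by all but 17.6% of the genes tested. The first 5 genes were thus well expressed in these libraries, while Krt7 rested on 20 to 159 reads per library.

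For 5 of the 6 genes (all but Krt7), the level was higher in each of the 3 metformin libraries than in each of the 3 PBS libraries, and all 6 had a positive log2 fold change, from 0.47 to 0.80. Among all genes tested, 9.49% were higher and 9.63% lower without overlap in this way, and 50.9% had a positive log2 fold change. The same 5 genes had an unadjusted p under 0.05 in edgeR's quasi-likelihood test, against 5.29% of all genes on the higher side and 5.08% on the lower. No gene of the 15527 passed an adjusted p of 0.05 in that test (0% called), where 1610 genes had an unadjusted p under 0.05; limma-voom called 0 and DESeq2 299. On the deposited TPM the split of genes at that unadjusted p was uneven, 498 higher and 1199 lower, against 821 higher and 789 lower on counts. DESeq2 called 1.23% of the genes that it gave an adjusted p as higher and 1.28% as lower, and Podnl1, Tmem176a, Ckb and Tmem176b were among them (DESeq2 adjusted p = 2.955e-05, 0.0157, 0.0217 and 0.0467 in that order). The 6 genes were picked with earlier results of these data known, so these shares describe them and test nothing about the group. In bulk RNA, a larger share of ILC1 among the cells and more RNA per cell cannot be told apart.

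**Figure D1:**
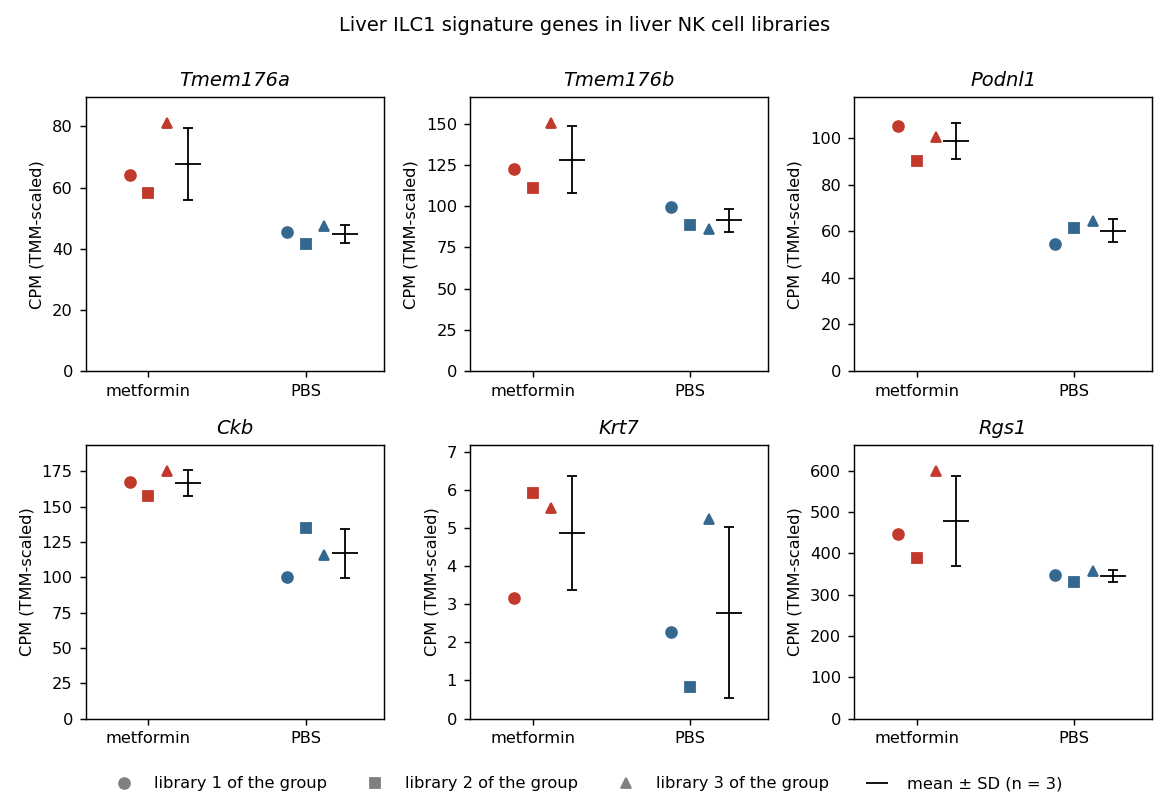
Level of each of the 6 genes (vertical axis, CPM scaled by TMM library factors, from 0) in the 3 metformin and 3 PBS libraries, with the marker shape giving the library number and the bar the mean ± SD. The groups are apart for every gene but Krt7, whose PBS library 3 (5.24 CPM) lies above metformin library 1 (3.15 CPM).

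Tmem176a (ENSMUSG00000023367.15) had 64.2, 58.3 and 81.0 CPM in metformin libraries 1, 2 and 3, against 45.4, 41.6 and 47.4 CPM in PBS libraries 1, 2 and 3. The groups did not overlap, and metformin library 3 was the highest. This was a 1.51-fold difference, or 0.60 on the log2 scale, with an SE of 0.14 and an edgeR adjusted p of 0.272. Without metformin library 3 it was 0.44.

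Tmem176b (ENSMUSG00000029810.16), the partner that shares the start region printed above, had 123, 111 and 150.5 CPM in metformin libraries 1, 2 and 3, against 99.6, 88.4 and 86.3 CPM in PBS libraries 1, 2 and 3. Again the groups did not overlap and metformin library 3 was highest. The log2 fold change was 0.49, with an SE of 0.13 and an edgeR adjusted p of 0.313, and it was 0.35 without metformin library 3. The ratio of Tmem176a to Tmem176b reads was 0.523, 0.525 and 0.538 in metformin libraries 1, 2 and 3, against 0.456, 0.470 and 0.549 in PBS libraries 1, 2 and 3. These ranges overlapped, and the ratio, which does not depend on the scaling between libraries, was 0.529 ± 0.00801 with metformin and 0.492 ± 0.0502 with PBS (SD, n = 3 each; two-sided exact permutation p = 0.4, where 0.1 is the smallest possible).

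Podnl1 (ENSMUSG00000012889.9, chromosome 8, 84852618 to 84859156, plus strand), the matrix protein gene, had 105, 90.0 and 100.3 CPM in metformin libraries 1, 2 and 3, against 54.7, 61.4 and 64.5 CPM in PBS libraries 1, 2 and 3. The lowest metformin library lay well above the highest PBS library, and metformin library 3 was not the highest here. Its log2 fold change was 0.71, with an SE of 0.11 and an edgeR adjusted p of 0.168, which gave it rank 15 by p among all genes tested, the best of the 6. Its spread was small in both groups, with a coefficient of variation of 7.83% with metformin and 8.33% with PBS. The medians over all genes tested were 17.4% with metformin and 11.8% with PBS. Those genes include many of lower level, as the mean TPM of Podnl1 was at or above that of 72.5% of them. No median over genes of like level was taken. Leaving out any 1 library gave 0.64 to 0.77, with 0.69 without metformin library 3.

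Its relatives among the small leucine-rich proteoglycans gave fewer reads in each library, the nearest being Dcn in PBS library 3, with 1392 reads against 1956 for Podnl1. Of the 8 in the family list 6 were tested, and of these Podnl1 alone was at an unadjusted p under 0.05. Dcn, decorin, a product of fibroblasts and stellate cells, was the most abundant of the others in these libraries, with 25.3 ± 10.1 CPM with metformin and 26.8 ± 17.9 CPM with PBS (SD, n = 3 each). Podn, Bgn, Fmod and Ogn averaged between 0.987 and 2.56 CPM in each group, and Lum and Aspn, with group means of 0.469 CPM or less, did not pass the filter.

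Ckb (ENSMUSG00000001270.10, chromosome 12, 111635795 to 111638772, minus strand), the cytosolic creatine kinase, had 167, 157 and 176 CPM in metformin libraries 1, 2 and 3, against 100.4, 135 and 116 CPM in PBS libraries 1, 2 and 3. The groups did not overlap, and PBS library 1 was the lowest. Its difference of 0.51 on the log2 scale had an SE of 0.12 and an edgeR adjusted p of 0.285, and was 0.40 when PBS library 1 and 0.62 when PBS library 2 was left out. Without metformin library 3 it was 0.47. The spread lay in the PBS group, with a coefficient of variation of 14.8%, against 5.41% with metformin.

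Other genes of creatine metabolism were scarce. Muscle creatine kinase, Ckm, averaged 2.66 CPM with metformin and 1.86 CPM with PBS, without overlap (log2 fold change 0.52, SE 0.33). Mitochondrial Ckmt1 had 0.657, 1.71 and 7.54 CPM in metformin libraries 1, 2 and 3 and 0, 1.52 and 7.55 CPM in PBS libraries 1, 2 and 3 and was highest in library 3 of both groups. Ckmt2 had no read in any library. The creatine transporter Slc6a8 averaged 0.460 CPM with metformin and 0.339 CPM with PBS, and Gatm and Gamt, which make creatine, had 5.25 and 1.91 CPM with metformin and 5.67 and 1.92 CPM with PBS. Of the 6 tested genes of this list, Ckb alone was at an unadjusted p under 0.05.

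Rgs1 (ENSMUSG00000026358.14, chromosome 1, 144118034 to 144124980, minus strand), the brake on G protein signals, had 448, 389 and 601 CPM in metformin libraries 1, 2 and 3, against 348, 331 and 358 CPM in PBS libraries 1, 2 and 3. The groups did not overlap, but metformin libraries 1 and 2 were each closer to every PBS library than to metformin library 3. The log2 fold change was 0.47, with an SE of 0.16 and an edgeR adjusted p of 0.402. It was 0.27 without metformin library 3, a change of over 1.5 times, the largest that leaving out this library made among the 6 genes.

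Rgs1 belongs to the R4 subfamily of RGS proteins, small proteins with little beyond the RGS domain, most of which act on Gi and Gq. Of its 10 listed members 5 were tested, and Rgs1 was higher and 1 gene lower at an unadjusted p under 0.05. The lower one was Rgs16, with 4.47, 4.59 and 3.86 CPM in metformin libraries 1, 2 and 3, against 7.18, 5.95 and 5.77 CPM in PBS libraries 1, 2 and 3 (-0.55 on the log2 scale, SE 0.23, edgeR adjusted p 0.472). Rgs2 had 150.3, 107 and 169.9 CPM in metformin libraries and 125, 107 and 124 CPM in PBS libraries, with overlap, and its log2 fold change was 0.26 (SE 0.17). Rgs3 and Rgs18 had log2 fold changes of 0.05 (SE 0.10) and 0.02 (SE 0.19). The other 5, Rgs4, Rgs5, Rgs8, Rgs13 and Rgs21, had 5 reads or fewer in any library. The R4 genes thus did not share 1 direction.

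Krt7 (ENSMUSG00000023039.18, chromosome 15, 101308924 to 101328194, plus strand), the bile duct keratin, had 3.15, 5.92 and 5.52 CPM in metformin libraries 1, 2 and 3, against 2.28, 0.821 and 5.24 CPM in PBS libraries 1, 2 and 3. The groups overlapped, and PBS library 3 lay among the metformin libraries. Its log2 fold change, 0.80, was the largest of the 6 but had the largest error, with an SE of 0.60 and an edgeR adjusted p of 0.654. It was 1.64 without PBS library 3 and 0.37 without PBS library 2, so the value rests on single PBS libraries, and 0.69 without metformin library 3. A lncRNA gene that overlaps it on the other strand, Gm671, had no read in any library.

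Other keratins of simple epithelia varied by library in the same way as Krt7. Krt19, a keratin of bile duct cells, had 5.12, 12.5 and 18.0 CPM in metformin libraries 1, 2 and 3 and 5.38, 4.27 and 18.8 CPM in PBS libraries 1, 2 and 3. Krt8 had 5.03, 14.6 and 14.2 CPM in metformin libraries and 3.24, 6.32 and 18.6 CPM in PBS libraries, and Krt20 had 0.438, 3.96 and 3.11 CPM in metformin libraries and 0, 0.287 and 3.00 CPM in PBS libraries. Krt7, Krt8, Krt19 and Krt20 were therefore each highest in the same 3 libraries, metformin 2, metformin 3 and PBS 3. Krt18 did not follow, with 3.15, 6.05 and 5.21 CPM in metformin libraries and 6.04, 4.10 and 3.82 CPM in PBS libraries. The 9 cholangiocyte markers summed to 40.1, 52.3 and 64.1 CPM in metformin libraries and 47.5, 38.4 and 56.1 CPM in PBS libraries (two-sided exact permutation p = 0.6), and were led by Epcam and Spp1. Of the 6 tested, 1 was higher at an unadjusted p under 0.05, the adhesion gene Epcam, with 20.8, 22.2 and 29.5 CPM in metformin libraries and 16.8, 14.1 and 18.5 CPM in PBS libraries. With metformin library 3 left out, 0 were. Of their defining genes Sox9 and Cftr stayed below the filter, with group means of 0.102 CPM or less, and Cftr had no read in the metformin libraries. The part of bile duct cells in the Krt7 reads was not tested.

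Of 14 other ILC1 genes listed for comparison, 12 were higher and 0 lower at an unadjusted p under 0.05, against 5.29% and 5.08% of all genes, and their median log2 fold change was 0.54, against 0.55 for the 6 genes and 0.01 for all genes tested. The ones with the smallest p were Il7r, the interleukin-7 receptor (log2 fold change 0.74, SE 0.11), Zfp683, the residency factor Hobit (0.72, SE 0.13), Inpp4b, a phosphoinositide phosphatase (0.58, SE 0.11), and Cd200r1, an inhibitory receptor (0.63, SE 0.12). The log2 fold change of Podnl1 lay within the range of these 4. Cd69 (-0.06, SE 0.09) and Rgs2 (0.26, SE 0.17), which is also in the R4 list, were the 2 genes that did not reach that p.

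Of 14 conventional NK genes, 12 were lower and 0 higher at an unadjusted p under 0.05, with a median log2 fold change of -0.54. The other 2 were Cx3cr1 (-0.51, SE 0.26) and Ly6c2, which was above 0 (0.15, SE 0.10). Eomes (-0.63, SE 0.09), the T-box factor of conventional NK cells, Itga4, an integrin subunit (-0.56, SE 0.13), and Klf2, a factor of lymphocyte egress (-0.35, SE 0.09), were among those with the smallest p. Summed, the 14 ILC1 genes gave 3213, 2974 and 3453 CPM in metformin libraries 1, 2 and 3, against 2091, 2348 and 2280 CPM in PBS libraries 1, 2 and 3. The conventional NK genes gave 4718, 4756 and 3824 CPM in metformin libraries, against 6108, 6195 and 6058 CPM in PBS libraries. Neither sum overlapped between the groups (two-sided exact permutation p = 0.1 each, the smallest possible). Without metformin library 3, 12 ILC1 genes were still higher and 12 conventional NK genes lower at that p. Both lists were drawn up with earlier results of these data known and are not independent support for the 6 genes. For the same reason, the counts and permutation p-values describe these lists and do not test a shift in them.

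**Figure D2:**
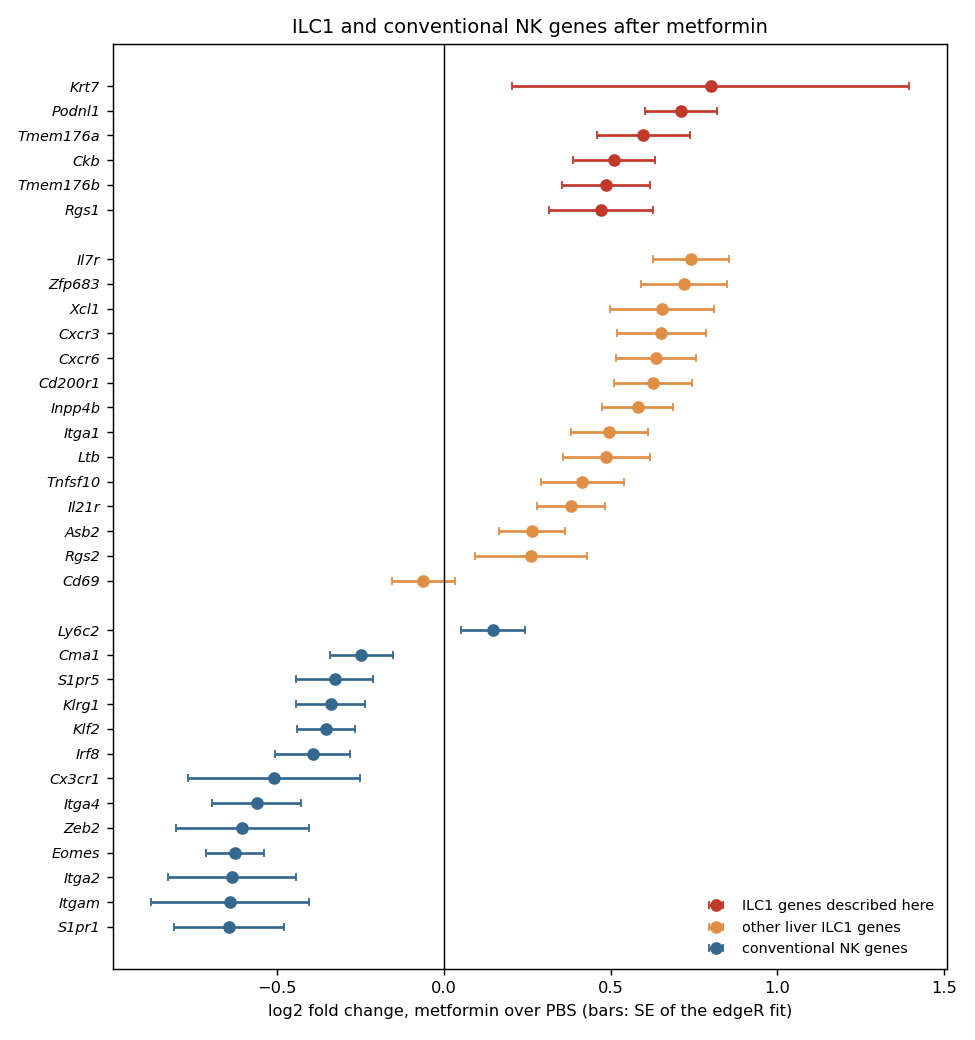
Log2 fold change, metformin over PBS (horizontal axis; points are genes and bars the SE of the edgeR fit), for the 6 genes at the top, 14 other liver ILC1 genes in the middle and 13 of the 14 conventional NK genes at the bottom. The 6 genes lie between 0.47 and 0.80. Krt7 has by far the widest bar and lies above all the other ILC1 genes, of which Il7r is highest (0.74). The rest of the 6 lie within the range of the other ILC1 genes.

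Several of the 6 genes are also transcribed by other liver leukocytes, so markers of those cells are given beside them. The 9 T cell markers summed to 300.1, 194 and 132 CPM in metformin libraries 1, 2 and 3, against 81.6, 126 and 157 CPM in PBS libraries 1, 2 and 3 (overlapping; two-sided exact permutation p = 0.2). Cd28 and Trac led that sum. Of the 9, 2 were higher at an unadjusted p under 0.05, both chains of the T cell receptor complex. Cd3e had 62.2, 40.6 and 24.3 CPM in metformin libraries and 6.92, 16.6 and 21.3 CPM in PBS libraries, and Cd3d had 51.1, 33.2 and 25.02 CPM in metformin libraries and 13.3, 17.7 and 18.7 CPM in PBS libraries, neither with overlap. Leaving out metformin library 3, 4 of the 9 were higher at that p, with Cd4 and Trac added. The T cell sum was highest in metformin library 1, as was Podnl1, while Rgs1, Tmem176a, Tmem176b and Ckb were highest in metformin library 3 and Krt7 in metformin library 2.

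Macrophages and dendritic cells also express Tmem176a and Tmem176b. The 9 macrophage and Kupffer cell markers summed to 52.1, 46.1 and 112 CPM in metformin libraries 1, 2 and 3, against 34.2, 56.9 and 50.6 CPM in PBS libraries 1, 2 and 3 (overlapping; exact permutation p = 0.5). The mean of log2(CPM + 1) over the list, in which abundant genes weigh less, was 0.83 higher with metformin (exact permutation p = 0.1, the smallest possible). Of the 8 tested, 7 had a positive log2 fold change, and their median was 1.63. At an unadjusted p under 0.05, 5 were higher and 1 lower. The higher ones include Adgre1, the F4/80 antigen, at 12.4 CPM with metformin and 5.23 CPM with PBS, and the complement gene C1qa, at 5.50 CPM with metformin and 0.913 CPM with PBS; the lower one was Csf1r, the receptor of macrophage growth factor, at 17.8 CPM with metformin and 31.0 CPM with PBS. Also higher at that p were C1qb, C1qc and Marco (log2 fold changes 1.60, 1.87 and 3.11). C1qb and C1qc overlapped between the groups. Marco had 1.09, 1.17 and 10.6 CPM in metformin libraries 1, 2 and 3, against 0, 0.534 and 0.923 CPM in PBS libraries. Vsig4 (1.66, SE 1.10) and Cd5l (1.34, SE 0.75) did not reach that p. Clec4f, a defining Kupffer cell gene, stayed below the filter, with 0.259 CPM with metformin and 0.0603 CPM with PBS. The whole macrophage and Kupffer cell list gave fewer reads than Tmem176b alone in every library, a comparison that depends on which genes are listed. Lyz2, in the neutrophil and monocyte list, gave more reads than Tmem176b in every library. The macrophage part of the Tmem176b reads was not tested. Without metformin library 3, which had the highest sum, 2 were higher at that p, Adgre1 and C1qa, and Csf1r was still lower. In each metformin library these 2 genes were above every PBS library, with 11.4, 11.1 and 14.7 CPM of Adgre1 in metformin libraries, against 2.50, 7.02 and 6.16 CPM in PBS libraries. The 7 dendritic cell markers, led by Flt3 and Zbtb46, summed to 54.2 to 70.0 CPM with metformin and 59.3 to 73.6 CPM with PBS (exact permutation p = 0.2).

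Tmem176a and Tmem176b are also genes of type 3 innate lymphoid cells (ILC3) in mouse. The 5 ILC3 markers summed to 3.85, 2.545 and 2.80 CPM in metformin libraries 1, 2 and 3. In PBS libraries 1, 2 and 3 they summed to 4.20, 3.61 and 4.12 CPM, with overlap (two-sided exact permutation p = 0.2). Of these markers, Il22, Il17a and Il17f had no read in any library. Whether ILC3 were present was not tested. Il23r, a chain of the interleukin-23 receptor, had 0.832, 0.709 and 1.01 CPM in metformin libraries 1, 2 and 3 and 0.331, 0.780 and 1.25 CPM in PBS libraries 1, 2 and 3, with overlap. The 5 ILC2 markers, of which Gata3, also an NK cell gene, made up most and Il1rl1 came next, summed to 132 to 141 CPM with metformin and 135 to 141 CPM with PBS.

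Hepatocyte markers, led by Trf and Alb, summed to 275, 258 and 602 CPM in metformin libraries 1, 2 and 3, against 333, 228 and 263 CPM in PBS libraries 1, 2 and 3 (exact permutation p = 0.6). All 9 had a positive log2 fold change, and 1 was higher at an unadjusted p under 0.05, the transferrin gene Trf, also without metformin library 3. Trf had 185, 184 and 291 CPM in metformin libraries, against 173, 161 and 158 CPM in PBS libraries, without overlap. The neutrophil and monocyte sum, mostly Lyz2 with some Csf3r, was 213 to 554 CPM with metformin and 203 to 337 CPM with PBS, and again metformin library 3 was highest. The B cell sum, led by Ighm and Cd79a, was 543 to 812 CPM with metformin and 340.1 to 616 CPM with PBS. Endothelial markers (Kdr and Stab2 first) reached 5.57 CPM with metformin and 5.38 CPM with PBS, and stellate cell and fibroblast markers (Col3a1 and Dcn first) 78.3 CPM with metformin and 195 CPM with PBS. These 5 sums overlapped between the groups. The part of all these cell types in the levels of the 6 genes was not tested.

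**Figure D3:**
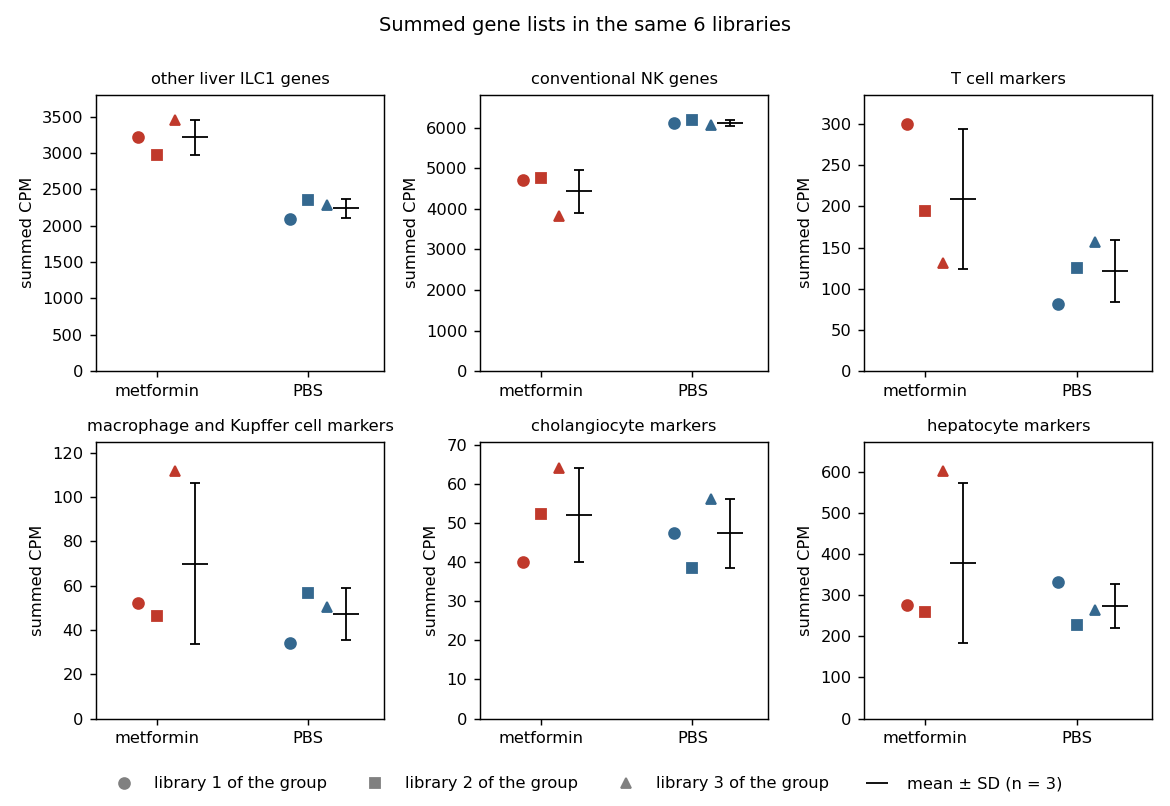
Summed CPM (vertical axis, from 0) of 6 gene lists in the 3 metformin and 3 PBS libraries, with the marker shape giving the library number and the bar the mean ± SD. The other ILC1 genes and the conventional NK genes separate the groups, while the T cell, macrophage, cholangiocyte and hepatocyte sums overlap, and metformin library 3 is highest in the last 3 of these.

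The 6 genes differed in which libraries were high within a group. Tmem176a, Tmem176b and Rgs1 had the same order in the metformin libraries (3, then 1, then 2), as had Ckb, while Podnl1 was highest in library 1 and Krt7 in library 2. The macrophage, hepatocyte, endothelial, and neutrophil and monocyte sums also ran 3, 1, 2 there, as did the sum of the other ILC1 genes. The T cell, B cell and dendritic cell sums ran 1, 2, 3. The PBS libraries did not share 1 order, for these genes or for these sums. The part of other cells in these orders was not tested. Across the 6 libraries, Pearson's correlation of log2 CPM was 0.97 between Tmem176a and Rgs1, 0.96 between Tmem176a and Tmem176b and 0.94 between Podnl1 and Ckb, and Krt7 had 0.34 to 0.64 with the other 5. These values describe 6 libraries that share the treatment difference and the differences in quality.

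The genes whose log2 CPM followed each gene most closely over the 6 libraries, out of 9875 protein-coding genes searched for each, were taken as 2 for each gene of at least 5 CPM. For Tmem176a they were Rnaseh2c, a subunit of ribonuclease H2 (r = 0.999), and Lamtor4, a subunit of the lysosomal Ragulator complex (0.995). For Tmem176b they were Rnasek (0.998) and Rps21, a ribosomal protein (0.997), and for Rgs1 Tm2d2 (0.997) and Cox14, an assembly factor of cytochrome c oxidase (0.997). All 6 of these were highest in metformin library 3 and have listed lengths of 481 to 2090 bases. By the length implied by TPM, described below, 46.6% of genes tested were shorter than Cox14. For the others of these the share was 2.18% to 23.3%. Podnl1 was followed by Mrpl1, a mitochondrial ribosomal protein (0.990), and Aqp9, a glycerol channel (0.988), and Ckb by Soat2, a cholesterol esterifying enzyme (0.992), and Ppm1m, a phosphatase (0.987). These are the highest of 9875 values over 6 libraries and carry no test.

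Since short genes read high in metformin library 3, the lengths of the 6 genes are given. The ratio of counts to TPM, which is proportional to the transcript length that the deposited TPM assumed, ranked Tmem176a, Tmem176b and Rgs1 among the shorter genes: 17.5%, 19.1% and 21.6% of genes tested were shorter. For Rgs1 the listed length of 5843 bases is 3.55 times that of Tmem176b, but the length implied by TPM is 1.10 times. Podnl1 and Krt7 were long on that measure (66.3% and 85.0% of genes shorter), and Ckb was between (26.1%). With the trend on this implied length removed, the log2 fold changes were 0.46 for Tmem176a, 0.36 for Tmem176b, 0.35 for Rgs1 and 0.43 for Ckb, but 0.79 for Podnl1, which was then called (edgeR adjusted p = 0.0468), and 0.98 for Krt7. This setting was chosen after seeing the data. With the trend on listed length removed, Rgs1 was at 0.65, and the other 5 were between 0.37 and 0.89. Every setting tried left the sign of all 6 genes positive.

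**Figure D4:**
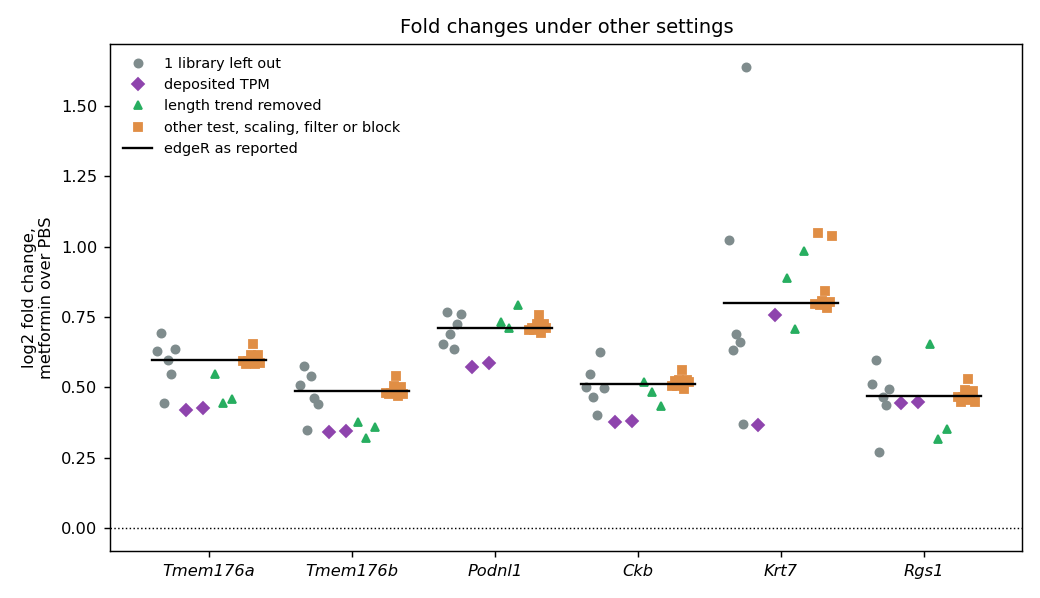
Log2 fold change, metformin over PBS (vertical axis), of each of the 6 genes under the reported edgeR fit (black line) and under 19 other settings, grouped by colour and marker. All values are above 0; Podnl1 stays between 0.57 and 0.79, Rgs1 is lowest at 0.27, and Krt7 runs from 0.37 to 1.64.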

How the data were processed

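Total RNA of liver NK cells was made into SMART-seq mRNA libraries, per the labels' protocols. The submitters' processing notes name DRAGEN, GRCm39 and mm10 without saying which build served what. The sources used here do not state strand use. The authors deposited 1 table with, for each library, estimated counts per gene (expected counts, not all whole) and TPM values, which correct for gene length and library total. Library columns were matched by the codes in the labels; 0 columns of values were left without a sample.

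Estimated counts were rounded and tested in R 4.3.3 with edgeR 4.0.16 (quasi-likelihood test, TMM factors, filterByExpr, no covariate; 15527 genes, common biological coefficient of variation 27.3%), with Benjamini-Hochberg adjustment over all genes and a threshold of 0.05. Fold changes are metformin over PBS. DESeq2 1.42.0, limma 3.58.1 (voom, and log2 TPM with a pseudocount of 1 or 0.1), other scalings and filters, a lowess length trend (span 0.3), a replicate block and each library left out were alternatives. For sums and ratios, exact two-sided permutation tests over libraries were used (smallest p 0.1). The code was tested on simulated data with 200 changed genes. The 6 genes, the comparison lists and the marker lists were chosen with earlier results of these data known. Named genes were the 6, the family lists, the 2 protein-coding genes of at least 5 CPM most correlated with each gene of at least 5 CPM, the 4 genes of smallest p in each program list, the 2 most abundant genes of each marker list, and genes added after their values were seen, among them Cd69, Cx3cr1, Ly6c2, Cd4, Cd3e, Cd3d, C1qa, Clec4f, Sox9 and Cftr. Some genes that these rules name are not reported here. Within groups, chi-square over its degrees of freedom was 13.8 to 57.7 for pairs of libraries, above counting error, which does not show that they came from separate animals. No molecular identifiers are stated in the sources used here, and PCR copies without them are not independent molecules.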

Additional observations from a re-analysis of the deposited data

How the results depend on the processing

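All 6 genes kept a positive log2 fold change in all 19 settings tried, and edgeR, limma-voom and the TPM fits left each above an adjusted p of 0.05, with the exception of Podnl1 at 0.79 with the trend on implied length removed. DESeq2 called 4 genes: Tmem176a (0.59), Tmem176b (0.48), Podnl1 (0.70) and Ckb (0.50). Over all genes, where edgeR called 0, DESeq2 called 299, no filter 1, the listed length trend removed 1 (17 with metformin library 3 also left out, a setting added after seeing the data), the implied length trend removed 34, and the replicate block 3; leaving out 1 library gave 0 to 1. The cause was not tested. The median of all genes was -0.10 on log2(TPM + 0.1), the shift against which TPM fold changes stand. Of the 14 genes each, those at an unadjusted p under 0.05 in the direction given numbered 9 to 13 for ILC1 and 8 to 13 for conventional NK genes.

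The replicate numbers are shared between the groups. Same-numbered libraries deviated together weakly, with correlations of 0.171, 0.0757 and 0.172, all positive. Of the 6 libraries, 5 correlated best with their own number. The titles number the libraries but name no pairs, so the main fit took none, and whether same-numbered libraries were handled together was not tested. With the replicate block, the 6 log2 fold changes were 0.59 for Tmem176a, 0.48 for Tmem176b, 0.71 for Podnl1, 0.52 for Ckb, 1.04 for Krt7 and 0.45 for Rgs1, and no call on them changed; the difference of the Tmem176a to Tmem176b log2 ratio within pairs was 0.11. Without metformin library 3, a check added after seeing the data, the markers at an unadjusted p under 0.05 on the higher side numbered 2 for macrophages, 4 for T cells, 0 for cholangiocytes, 1 for hepatocytes and 2 for neutrophils and monocytes, where all libraries gave 5, 2, 1, 1 and 0 in the same order.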
